A study of Mus musculus with 12 samples.

Results

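The 9 genes described here are the MHC class I presentation genes B2m, H2-K1, H2-D1, Tap1, Tap2, Tapbp, Psmb8, Psmb9 and Nlrc5, chosen by symbol from the 32289 features counted in single-cell RNA-seq of the superior mesenteric ganglion (SMG), a sympathetic ganglion of the abdomen. In mice of strain 129+Ter/SvJcl carrying the Th-MYCN transgene, human MYCN expressed from the rat tyrosine hydroxylase promoter, neuroblastoma arises from this ganglion. The series held 12 libraries, each from 1 mouse: 1 from a wild-type (WT) mouse 3 weeks old, 10 from Th-MYCN+/- hemizygotes 3 weeks old, and 1 from a Th-MYCN+/- hemizygote 6 weeks old that was taken because a macroscopic tumour was seen at dissection. All cells were dissociated with collagenase and TrypLE without a sort, and the strain is common to all groups. A gene's level is given as CPM, its UMIs (unique molecules counted) per 1000000 UMIs of all genes in all cells of 1 class in 1 mouse.

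MHC class I molecules display short peptides from proteins made inside the cell to CD8 T cells. The heavy chains (H2-K1 and H2-D1 in the mouse) pair with the light chain beta-2 microglobulin (B2m). Peptides are cut by the proteasome, in which Psmb8 and Psmb9 are catalytic subunits of the immunoproteasome form, are carried into the endoplasmic reticulum by the transporter made of Tap1 and Tap2, and are loaded with the help of tapasin (Tapbp). Nlrc5 is a transactivator that binds with other factors to the promoters of these genes, and interferon gamma raises most of them. Low MHC class I on the cell surface is a known feature of human neuroblastoma with MYCN amplification.

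The genes lie on 3 chromosomes of mm10 (GRCm38, positions from the GENCODE vM21 annotation). B2m is on chromosome 2 at 122147686-122153083, and Nlrc5 is on chromosome 8 at 94434356-94527272. The other 7 are on chromosome 17, where Psmb9 (34181987-34187764), Tap1 (34187553-34197225), Psmb8 (34197721-34201454) and Tap2 (34203527-34216321) follow each other between H2-K1 (33996017-34000347) and H2-D1 (35262730-35267499), and Tapbp is at 33915899-33929292. Psmb9 and Tap1 overlap at their start sites on opposite strands. H2-K1, H2-D1 and the other class I heavy chains are close copies of one another, so the division of reads among them is uncertain.

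The promoters of the light chain and of both heavy chains are shown because these 3 genes carried most of the UMIs and moved together between cell classes. Each is the 180 bases before the start site in RefSeq (GRCm38.p6), written along the gene's own strand, for B2m at chr2:122147507-122147686 (plus strand), for H2-K1 at chr17:34000348-34000527 (minus strand) and for H2-D1 at chr17:35262914-35263093 (plus strand). The stretch of H2-K1 lies outside the GENCODE gene, that of B2m ends on its first annotated base, and that of H2-D1 lies within the longer GENCODE interval of the gene. Capitals mark letters that match a searched motif on either strand: the cAMP response half-site TGACG, the CCAAT box CCAAT (its reverse complement is ATTGG), the NF-kB site GGGATTCCC and the interferon response element core GAAANNGAA.
B2m: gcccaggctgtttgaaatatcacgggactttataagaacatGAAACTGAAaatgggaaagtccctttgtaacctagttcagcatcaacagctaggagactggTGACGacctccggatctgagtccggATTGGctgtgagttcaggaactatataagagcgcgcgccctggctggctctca
H2-K1: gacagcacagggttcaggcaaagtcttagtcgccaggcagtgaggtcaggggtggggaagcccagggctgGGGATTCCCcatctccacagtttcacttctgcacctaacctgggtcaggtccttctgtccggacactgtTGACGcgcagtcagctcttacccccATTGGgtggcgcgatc
H2-D1: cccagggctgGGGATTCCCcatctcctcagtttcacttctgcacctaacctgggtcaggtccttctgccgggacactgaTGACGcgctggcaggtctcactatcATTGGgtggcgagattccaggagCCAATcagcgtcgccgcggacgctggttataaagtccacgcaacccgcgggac
In each of the 3 stretches TGACG was followed by the reverse-complement CCAAT box 25 bases further on, counted from first letter to first letter. That pair at that spacing was present in 31 of 32851 RefSeq promoter windows of 300 bases (0.0944%), which belonged to 27 genes, among them the class I heavy chain H2-M3. The spacing was noted after the matches were seen. GGGATTCCC stood 69 bases before TGACG in both heavy chain stretches and was present in 0.353% of the windows. GAAANNGAA was found before B2m and in 8.56% of the windows, TGACG in 20.8% and the CCAAT box in 37.4%. A search for the fixed pattern GAAANNGAA cannot show that the heavy chain stretches lack an interferon response element. Windows were given for 7 of the 9 genes (Tap2 and Nlrc5 had none); the windows of Tap1 and Psmb9 shared 275 bases, and no overlapping matches of different motifs occurred in the 3 stretches printed. Aligned without gaps, the H2-K1 and H2-D1 windows had 176 of 240 bases in common (73.3%).

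Of 16236 barcodes called as cells from the deposited UMIs 12054 passed the filters, with 618 in the WT library, 945 in the 6-week library and 522 to 1871 in the 10 hemizygotes 3 weeks old. The libraries held 1147772 to 6388766 UMIs. Clusters were named from fixed markers, with 25 pathway genes, 4 of the 9 among them, left out of the 2000 variable genes. In the 10 mice there were 2769 neuroblast-like cells (Dlk1, Cartpt), 2501 ganglion-like cells (Npy, Dbh, Th), 2207 Schwann-like cells, 432 endothelial-like cells and 170 macrophage-like cells, and over all libraries 2223 cells of a shallow cluster (median 500 UMIs) stayed unnamed. Human MYCN (H-MYCN) UMIs were absent from the WT library in all classes and stood at 97.6 to 562 CPM in the neuroblast-like cells of the 10 mice, against 0 to 9.20 CPM in their ganglion-like cells. Replicate 2 stood apart, with 1525 ganglion-like and 41 neuroblast-like cells. Pairs of libraries shared 95 barcodes where 89.22 were expected by chance. RNA free in the droplet fluid, read from barcodes with at most 100 UMIs, accounted for at most 2.59% to 62.3% (median 5.13%) of the UMIs of neuroblast-like cells and 14.7% to 65.9% (median 27.3%) of those of ganglion-like cells, the highest neuroblast-like value being that of replicate 2.

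B2m, the light chain that every class I molecule needs, was lowest in neuroblast-like cells and highest in macrophage-like cells. Its level in the neuroblast-like cells of the 10 mice had a lowest value of 13.0, a median of 35.0 and a highest of 293 CPM (mean 66.8 ± 83.2, SD). In ganglion-like cells the corresponding values were 116, 241 and 991 CPM (326 ± 250). Every mouse had more in ganglion-like cells, and the ranges overlapped only because of replicate 2, whose 41 neuroblast-like cells gave 293 CPM from 9 UMIs while the next mouse had 91.1 CPM. The highest ganglion-like value, 991 CPM in replicate 6, came to 82 of 119 UMIs from 1 cell and was 366 CPM without it.

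In Schwann-like cells, the glia of the ganglion, B2m stood at 458, 930 and 3292 CPM (lowest, median, highest; 1254 ± 819). Endothelial-like cells gave 962, 1341 and 3230 CPM (1625 ± 804), and macrophage-like cells 4061, 4819 and 6157 CPM (4976 ± 668). The macrophage-like values lay above those of every other class, apart from the 4264 CPM in natural killer T (NKT)-like cells of 1 mouse (3394 CPM in the only other mouse with at least 5 such cells). Fibroblast-like cells (360, 853 and 2781 CPM in 9 mice) and myofibroblast-like cells (0, 391 and 917 CPM in 9 mice) rested on 67 and 52 UMIs. Between neighbours in the order of means, only endothelial-like and macrophage-like levels differed by more than their spread.

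H2-D1 was the member found most widely in the neuroblast-like cells, where it stood at 110, 141 and 391 CPM (173 ± 85.2). Ganglion-like cells held 233, 500 and 939 CPM (527 ± 223), Schwann-like cells 0, 890 and 4980 CPM (1405 ± 1429), endothelial-like cells 1159, 1553 and 5777 CPM (2212 ± 1648) and macrophage-like cells 1309, 2201 and 6055 CPM (2681 ± 1439). The Schwann-like value of 0 came from the 7 cells of replicate 2, whose 3796 UMIs allow a level of up to 790 CPM. Each mouse had more H2-D1 in ganglion-like than in neuroblast-like cells, although the neuroblast-like values of replicate 2 (391 CPM, from 12 UMIs) and replicate 10 (233 CPM) lay inside the ganglion-like range.

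H2-K1, the other classical heavy chain, was scarcer in neuroblast-like cells than in any other named class by its mean, at 0.957, 10.5 and 97.6 CPM (23 ± 29.2). It stood at 58.3, 101 and 328 CPM in ganglion-like cells (125 ± 76.4), at 0, 355 and 1218 CPM in Schwann-like cells and at 284, 470 and 2485 CPM in endothelial-like cells. Macrophage-like cells gave 481, 788 and 1448 CPM, and the NKT-like cells of 2 mice gave 1997 and 2942 CPM. As for B2m, the neuroblast-like and ganglion-like ranges met only through replicate 2 (97.6 CPM from 3 UMIs, with 39.0 CPM in the next mouse). A single neuroblast-like cell gave 12 of 24 H2-K1 UMIs in replicate 5 and 8 of 13 in replicate 9.

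**Figure D1:**
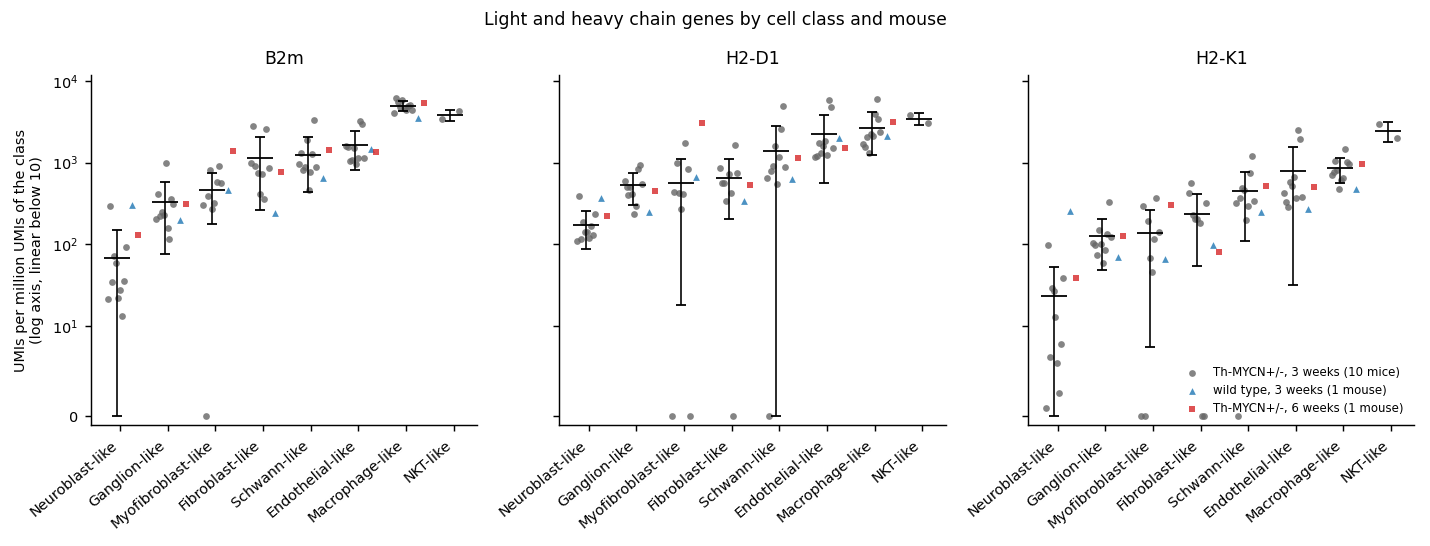
B2m, H2-D1 and H2-K1 in 8 cell classes, in CPM of the class on an axis that is logarithmic above 10 and linear below. Points are mice (grey circles, 3-week-old Th-MYCN+/-, up to 10 per class; blue triangles, WT; red squares, 6 weeks), horizontal lines are means and bars are 1 SD, cut at 0; the neuroblast-like means are the lowest in each panel (66.8 for B2m), while single mice of the Schwann-like, fibroblast-like or myofibroblast-like classes, which hold few UMIs, lie at 0.

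Tapbp, which holds the empty class I molecule at the transporter while peptides are exchanged, separated the 2 neural classes completely. Neuroblast-like cells held 1.32, 6.45 and 65.1 CPM, and ganglion-like cells held 66.7, 99.5 and 143 CPM, so that the ranges of the 10 mice did not overlap. Schwann-like cells (76.4, 166 and 263 CPM) and endothelial-like cells (143, 232 and 366 CPM) lay above the neuroblast-like range as well. The 65.1 CPM at the top of the neuroblast-like range was 2 UMIs of replicate 2, and the next mouse had 21.1 CPM.

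The transporter subunits were close to the limit of detection in neural cells. Tap1 had 5 UMIs in all 2769 neuroblast-like cells and was at 0 in 7 of 10 mice, which allows levels of up to 1.18 to 97.6 CPM in those mice depending on their depth. In ganglion-like cells it stood at 0, 4.2 and 10.2 CPM. Tap2 stood at 0, 0.645 and 2.76 CPM in neuroblast-like cells (13 UMIs) and at 0, 7.23 and 14.8 CPM in ganglion-like cells. Schwann-like cells had 17.0, 30.2 and 263 CPM of Tap1 and 50.9, 98.3 and 263 CPM of Tap2, both above the whole neuroblast-like range; the value of 263 CPM was 1 UMI among the 7 cells of replicate 2.

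Psmb8, the immunoproteasome subunit that replaces Psmb5, stood at 0, 5.63 and 32.5 CPM in neuroblast-like cells and at 7.75, 77.5 and 139 CPM in ganglion-like cells. Schwann-like cells had 76.4, 182 and 340 CPM, endothelial-like cells 258, 329 and 1118 CPM and macrophage-like cells 0, 469 and 641 CPM. In the neuroblast-like cells of replicate 5, 22 of 24 Psmb8 UMIs came from 1 cell with 38826 UMIs. Likewise 1 cell with 36900 UMIs gave 13 of 19 in replicate 4, and 1 with 43889 UMIs gave 9 of 14 in replicate 9. Psmb9, which replaces Psmb6, was at 0, 0.50 and 3.15 CPM in neuroblast-like, 0, 11.1 and 19.4 CPM in ganglion-like, 8.49, 35.8 and 263 CPM in Schwann-like and 0, 147 and 1264 CPM in endothelial-like cells. Its highest endothelial-like value, in replicate 3, rested on 48 of 49 UMIs in 1 cell and was 27.5 CPM without that cell. Psmb9 had no UMI in the fibroblast-like or myofibroblast-like cells of any of 9 mice, which allows 137 to 1669 CPM in a single mouse.

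Nlrc5 was too scarce to place. It had 8 UMIs in neuroblast-like, 12 in ganglion-like, 5 in Schwann-like, 1 in endothelial-like and 1 in macrophage-like cells of the 10 mice. The highest neuroblast-like value was 1.85 CPM, and 6 of 10 mice were at 0.

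**Figure D2:**
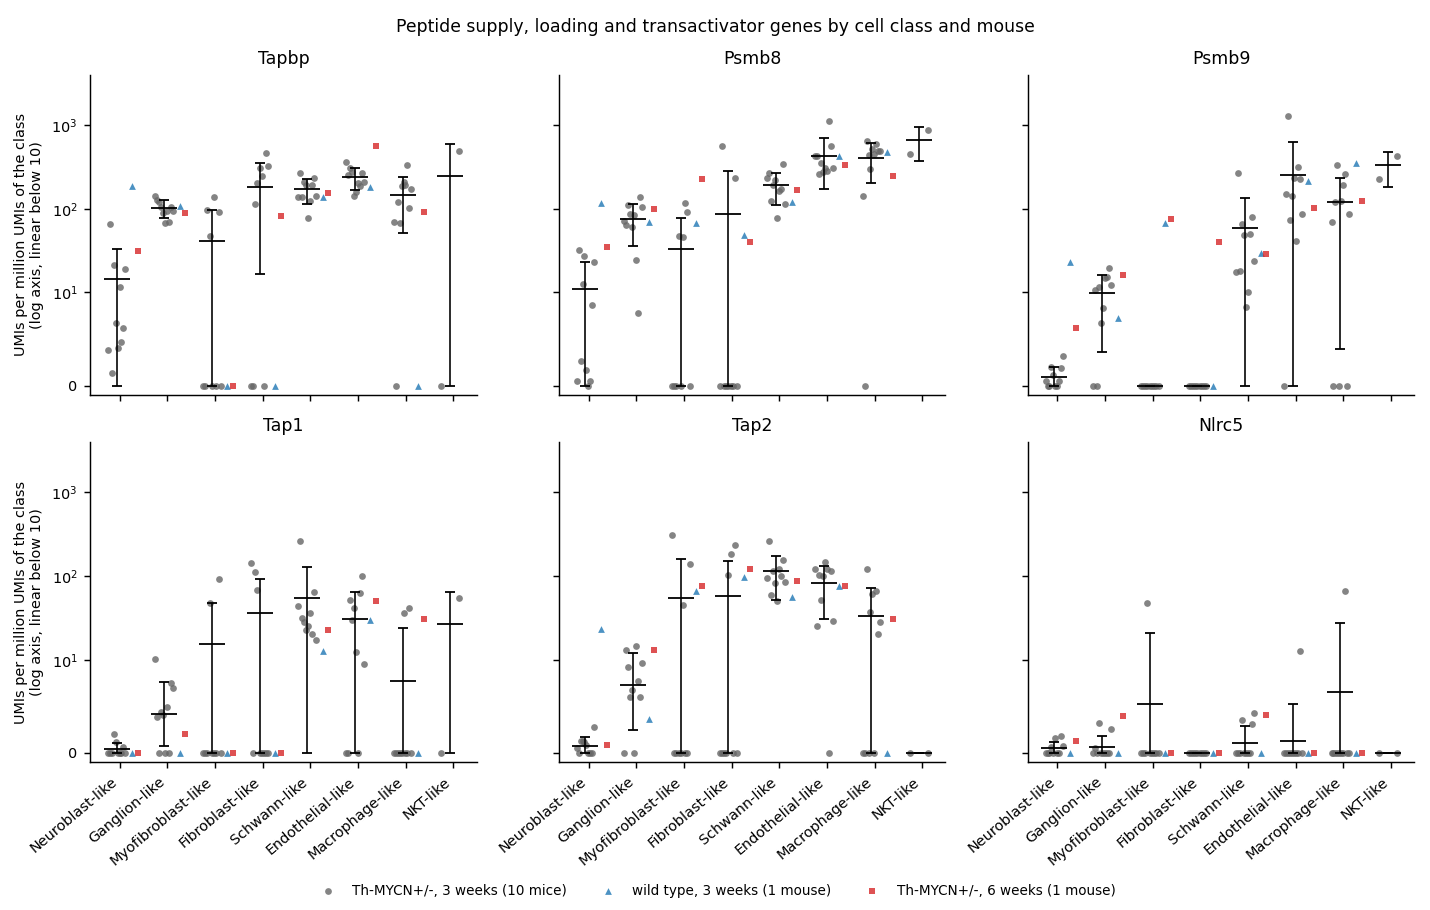
Tapbp, Psmb8, Psmb9, Tap1, Tap2 and Nlrc5 in the same 8 classes, in CPM of the class (logarithmic above 10, linear below), with mice, means and 1 SD drawn as for the chains. Tapbp in ganglion-like cells lies between 66.7 and 143, above all 10 neuroblast-like values, whereas Nlrc5 lies at 0 in most mice of every class.

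Each class was then compared with the neuroblast-like cells of the same mice, to ask whether the differences exceeded the spread between mice, with edgeR's quasi-likelihood test on UMIs summed per mouse and class and the mouse as a block; p-values were adjusted by Benjamini-Hochberg over all genes tested. In ganglion-like against neuroblast-like cells 5 of the 9 genes passed the filter on low counts and 5 were called higher, while 30.7% of all 7138 genes tested were called higher. A gene can pass that filter through the class in which it is high, so the count carries no weight of its own, here or in the comparisons below. The 5 had a median difference of 3.00 on the log2 scale, and all genes tested had a median of -0.12.

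B2m was higher in ganglion-like cells by 2.58 ± 0.30 (log2, SE; edgeR, adjusted p = 2.9e-07), H2-K1 by 3.00 ± 0.42 (adjusted p = 2.8e-06) and H2-D1 by 1.59 ± 0.18 (adjusted p = 2.4e-07). Tapbp differed by 3.31 ± 0.30 (adjusted p = 1.0e-08) and Psmb8 by 3.08 ± 0.41 (adjusted p = 1.5e-06). Each of the 5 was higher in ganglion-like cells of 10 of 10 mice. Without replicate 2, whose cells stood apart, the differences were 2.75 for B2m, 3.16 for H2-K1, 1.71 for H2-D1, 3.43 for Tapbp and 3.17 for Psmb8, all called by edgeR. Without the filter on low counts, when 20.4% of 19113 genes were called higher, Psmb9 (2.82 ± 0.47), Tap1 (2.91 ± 0.67) and Tap2 (2.53 ± 0.53) were called as well, whereas Nlrc5 (0.76 ± 0.86, edgeR adjusted p = 0.53) was not.

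Other cells' RNA moved with this comparison. The 12 Schwann markers summed to 199, 642 and 19268 CPM in neuroblast-like cells (lowest, median, highest). In ganglion-like cells they summed to 1525, 4016 and 6315 CPM. The 10 endothelial markers summed to 33.2, 68.98 and 879 CPM in neuroblast-like and 82.8, 175 and 236 CPM in ganglion-like cells. By the median both sums were higher in ganglion-like cells. The highest single values were both those of the 41 neuroblast-like cells of replicate 2, where free RNA could hold up to 62.3% of the UMIs. Macrophage markers summed to 0 to 21.4 CPM in neuroblast-like cells, with Aif1 and Fcer1g at 0, and to 0 to 55.2 CPM in ganglion-like cells. NKT markers reached no more than 3.95 and 9.20 CPM, with 4 and 7 of 10 markers at 0. The part of these markers in the result was not tested beyond the settings that follow. In the free RNA of the 10 mice B2m stood at 281 to 754 CPM, Psmb8 at 31.2 to 161 CPM and Tapbp at 18 to 84.5 CPM.

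Subtracting the largest share that free RNA could hold left 0, 182 and 1138 CPM of B2m in ganglion-like cells and 0, 8.54 and 75.1 CPM in neuroblast-like cells, with 9 of 10 mice higher in ganglion-like cells. B2m did not enter the test under that setting. The other 4 genes did, and their differences were 4.16 for H2-K1, 1.73 for H2-D1, 4.08 for Tapbp and 4.18 for Psmb8, all called by edgeR. Over all libraries 1646 neuroblast-like and 1193 ganglion-like cells had no glial, endothelial or immune marker UMI. When only such cells of the 3-week-old hemizygotes were kept, 23.7% of 2799 genes were called higher. B2m (3.54) and H2-D1 (2.07) were among them. H2-K1, Tapbp and Psmb8 were called in each alternative setting in which they entered the test (16 of 16, 16 of 16 and 15 of 15). With clusters built on log-normalized values instead, the differences of the 5 genes ran from 2.10 for H2-D1 to 6.22 for Psmb8.

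Schwann-like cells exceeded neuroblast-like cells in the 6 genes tested, beside 31.3% of all 5520 genes. B2m was higher by 4.95 ± 0.39 (edgeR, adjusted p = 6.0e-10) in 10 of 10 mice, Tap2 by 6.69 ± 0.37 and Psmb8 by 4.79 ± 0.45, each with ranges that did not overlap. Tap2 had only 13 UMIs in neuroblast-like cells, with 4 of 10 mice at 0. It can have passed the filter through the Schwann-like sums alone, and the size of its difference is uncertain. H2-K1 (5.33 ± 0.46) and H2-D1 (3.11 ± 0.38) were higher in 9 of 10 mice, the exception being replicate 2 with 7 Schwann-like cells. Tapbp differed by 4.45 ± 0.31.

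In endothelial-like cells 5 genes were tested and called higher, against a background of 32.2% of 2120 genes. The differences were 5.53 ± 0.41 for B2m, 6.04 ± 0.59 for H2-K1, 4.00 ± 0.30 for H2-D1, 5.07 ± 0.38 for Tapbp and 6.09 ± 0.55 for Psmb8, with ranges that did not overlap and 10 of 10 mice higher for each. By another scaling the split of all called genes shifted: 49.9% of them were higher in endothelial-like cells here, 36.4% with DESeq2 and 36.2% with total UMIs in place of TMM factors. The 5 genes were called higher under both.

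Macrophage-like cells, sentinels that also present peptides on class II molecules, held 3 tested genes, with 29.3% of 1072 genes called higher. B2m was higher by 7.57 ± 0.33 (edgeR, adjusted p = 8.7e-16), H2-K1 by 6.66 ± 0.47 and H2-D1 by 4.70 ± 0.26, with no overlap of ranges. Here 41.3% of the called genes were higher, 25.1% with DESeq2 and 19.9% with total UMIs. The median of all genes tested moved from -0.27 to -0.80 and -1.06 on the log2 scale with these scalings, and each of the 3 genes was called higher under both. Psmb8 (9 of 10 mice higher) and Tapbp (9 of 10) did not pass the filter. Schwann markers summed to 39638 to 117085 CPM in macrophage-like cells. Their part in the result was not tested.

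The stromal classes held the fewest UMIs of the classes compared. None of the 9 genes passed the filter in fibroblast-like cells (20.3% of 365 genes were called higher); without the filter, where 4.44% of 17775 genes were called higher, B2m differed by 3.08 ± 0.38, H2-K1 by 2.70 ± 0.46, Tapbp by 3.32 ± 0.49, Tap1 by 4.48 ± 1.60 and Tap2 by 4.66 ± 1.33, all called by edgeR, and H2-D1 by 0.57 ± 0.37 (adjusted p = 0.28). In replicate 8 all 11 fibroblast-like B2m UMIs came from 1 cell. In myofibroblast-like cells 2 genes were tested beside 9.22% of 3699 genes called higher, and B2m differed by 3.34 ± 0.38 in 8 of 9 mice and H2-D1 by 1.60 ± 0.33 in 7 of 9. The H2-D1 call was lost without the filter (0.57, edgeR adjusted p = 0.24) and with cells of at least 1000 UMIs only (0.85, adjusted p = 0.26). Of all called genes 35.4% were higher in fibroblast-like cells (21.0% with total UMIs) and 21.5% in myofibroblast-like cells (34.7% with total UMIs).

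Vessel and ganglion cells were also set against each other. In endothelial-like against ganglion-like cells, with 30.9% of 1927 genes called higher, B2m was higher by 2.60 ± 0.28 in 9 of 10 mice, H2-K1 by 2.62 ± 0.23, H2-D1 by 2.14 ± 0.20, Psmb8 by 2.57 ± 0.28 and Tapbp by 1.42 ± 0.19, the last 4 in 10 of 10 mice. Replicate 6, with 1 ganglion-like cell rich in B2m, was the mouse that went the other way for B2m. Tapbp was no longer called without the filter on low counts (0.60, edgeR adjusted p = 0.059). These comparisons share the ganglion-like and neuroblast-like sums of the same mice with those above.

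**Figure D3:**
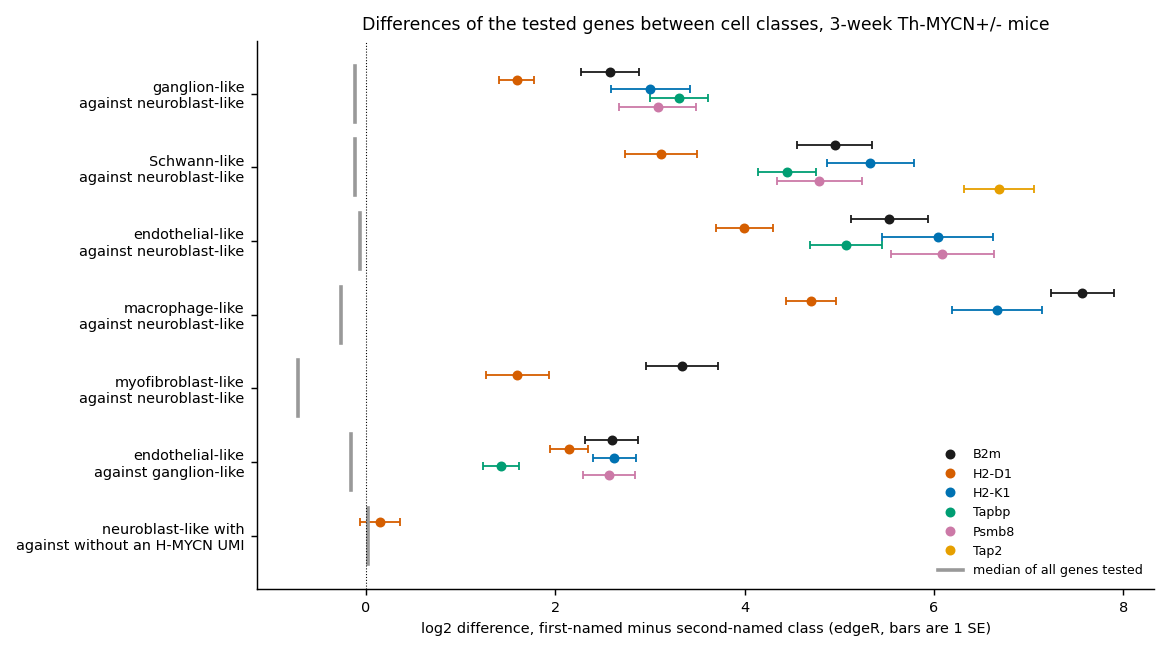
Log2 differences (edgeR, first-named minus second-named class, bars 1 SE) of the genes that passed the low-count filter in each comparison, over the 3-week-old Th-MYCN+/- mice. Grey bars mark the median of all genes tested, from -0.72 to 0.02; every coloured point of the 6 class comparisons lies to the right of its bar, from 1.42 (Tapbp, endothelial-like against ganglion-like) to 7.57 (B2m, macrophage-like).

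Per cell, 54.7% of the 2769 neuroblast-like cells (median 4332 UMIs) had no UMI of any of the 9 genes and 29 cells had 10 or more, with a highest count of 182. Of the 2501 ganglion-like cells, which had fewer UMIs (median 1146), 33.7% had none and 203 had 10 or more, with a highest count of 232. After each cell was thinned to 500 UMIs, B2m was seen in 1.68% of neuroblast-like cells (45 of 2673), 15.8% of ganglion-like, 40.3% of Schwann-like, 51.0% of endothelial-like and 84.1% of macrophage-like cells; before thinning the shares in neuroblast-like and ganglion-like cells were 9.21% and 38.0%. H2-D1 followed the same order at 6.29%, 21.7%, 43.7%, 55.6% and 68.2%. The shallow unnamed cells (median 500.5 UMIs) had B2m in 1.51% and H2-D1 in 5.95% after thinning. No class here is known to lack these genes, so the share that free RNA alone would give could not be read from such a class.

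Neuroblast-like cells fell into 3 clusters, called 2, 4 and 9 by size. Their cell numbers are over all libraries, and their levels are over the 3-week-old hemizygotes. Cluster 4 (1179 cells, Tap1 and Tap2 at 0 in all 9 mice with at least 5 of its cells) had a median of 25.3 CPM of B2m, 108 CPM of H2-D1, 0 CPM of H2-K1 and 1.20 CPM of Psmb8. Cluster 2 (1621 cells) had medians of 33.3, 157, 13.1 and 7.48 CPM for the same genes. Cluster 9 (265 cells) had H2-K1 and Psmb8 at a median of 0, with 36.3 CPM of B2m and 150 CPM of H2-D1. Tap1 and Tap2 were at 0 in all 10 mice in cluster 9 too, and so was Psmb9. Over all neuroblast-like cells of the 10 mice Tap1, Tap2 and Psmb9 stood at 0.381, 0.992 and 1.30 CPM. At such levels a 0 in 1 cluster of a mouse does not show absence. The ranges over mice overlapped between the 3 clusters for B2m and H2-D1. The clusters were formed on other genes of the same cells, so these values are a description.

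Neuroblast-like cells with and without a UMI of the transgene were compared within each mouse. Cells of at least 1000 UMIs were thinned to 1000 UMIs and split by whether an H-MYCN UMI remained. That was so in 43 of 350 cells of replicate 10 and 136 of 309 cells of replicate 4. At this depth an expressing cell can show no H-MYCN UMI by sampling, so the split cannot tell expressing from non-expressing cells. By edgeR 0.0978% of 2046 genes (2 genes) were called in either direction, 1 higher and 1 lower with an H-MYCN UMI. H-MYCN itself was not taken out of these sums, and the split fixes its direction. A call of that gene would therefore be no background for the others. H2-D1, the only one of the 9 that passed the filter, had a mean of 134 ± 64.0 CPM in cells with and 118 ± 24.2 CPM in cells without an H-MYCN UMI (9 mice). It was higher in 5 of 9 mice, and the difference of 0.15 ± 0.21 did not pass the test (adjusted p = 0.98). B2m had 11 and 56 UMIs in these sums, at means of 15.1 and 32.9 CPM, and was lower with an H-MYCN UMI in 8 of 9 mice. It did not pass the low-count filter, and without the filter its difference of -0.98 ± 0.48 was not called by edgeR (adjusted p = 0.97).

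The study placed ganglion cells and neuroblasts with MYCN on separate arms of a branched trajectory. Here, instead, neuroblast-like cells were scored on an axis between 134 ganglion and 37 malignant genes that the study had chosen on these samples, without the genes described here. At a range limit of 0.3 the intermediate range held 1 to 22 cells in the 9 mice that had any, and 8 mice had 5 or more. B2m averaged 229 ± 185 CPM in the intermediate and 14.3 ± 6.05 CPM in the malignant range (21 and 35 UMIs; 6 of 8 mice higher), and H2-D1 411 ± 219 and 114 ± 32.2 CPM (35 and 265 UMIs; 7 of 8 mice higher). None of the 9 genes passed the low-count filter, under which 8.75% of 1040 genes were called higher. Without the filter (1.05% of 14745 genes called higher) edgeR called B2m (2.93 ± 0.45) and H2-K1 (3.83 ± 1.15, adjusted p = 0.014) and did not call H2-D1 (0.91 ± 0.39, adjusted p = 0.12). At a range limit of 0.2, with 10.7% of 1206 genes called higher, H2-D1 passed the filter and was called (1.40 ± 0.26, 9 mice).

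The WT and 6-week groups are single libraries, so their values are set beside the range of the 10 mice without a test. The intervals in parentheses are exact Poisson 95% intervals and take in counting error alone. In WT ganglion-like cells B2m stood at 196 CPM (147 to 256), H2-K1 at 69 CPM and H2-D1 at 247 CPM, each inside the range of the 10 mice. The 36 WT neuroblast-like cells were shallow (median 350 UMIs), with 29842 of their 43099 UMIs in 1 cell, and free RNA could hold up to 84.5% of them. Their B2m value of 302 CPM (161 to 516) lay above all 10 mice and rested on 13 UMIs; subtracting free RNA left 0 CPM. Before that subtraction, B2m was higher in neuroblast-like than in ganglion-like cells in WT, and lower in each of the 10 mice. WT Schwann-like, endothelial-like and macrophage-like cells had 653, 1484 and 3531 CPM of B2m, the last below all 10 mice (4061 and above) at an interval of 2382 to 5040 CPM.

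In the 6-week tumour library the neuroblast-like cells (260 cells) held 128 CPM of B2m (114 to 144), more than 9 of the 10 younger mice, 222 CPM of H2-D1 (203 to 242) and 38.4 CPM of H2-K1 (30.8 to 47.4). Psmb8 at 34.9 CPM (27.6 to 43.5) and Psmb9 at 6.18 CPM (3.38 to 10.4) lay above all 10 mice, although the lower bound for Psmb8 lay within their range. These values depended on how clusters were built: with log-normalized values the 6-week library gave 23.5 CPM of B2m, 88.2 CPM of H2-D1 and 3.53 CPM of H2-K1 in neuroblast-like cells. Levels of the 10 mice under that clustering are not given, so these values do not show the place of the 6-week library among them. With the main clusters the library's ganglion-like cells had 310 CPM of B2m (276 to 346), its Schwann-like cells 1410 CPM, its endothelial-like cells 1342 CPM and its macrophage-like cells 5433 CPM, all inside the range of the 10 mice. Tapbp stood at 557 CPM in its endothelial-like cells, with 14 of 22 UMIs in 1 cell and 208 CPM without it. Age, the tumour and the individual mouse cannot be told apart here.

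Replicates 8 and 9 had high heavy chain levels in endothelial-like and Schwann-like cells, a pattern noted after the values were seen and therefore given without a test. In endothelial-like cells H2-D1 stood at 5777 and 4774 CPM in these mice and at 1159 to 1850 CPM in the other 8, and H2-K1 at 2485 and 1925 CPM against 284 to 666 CPM. B2m stood at 3230 and 2938 CPM against 962 to 1585 CPM, and Psmb8 at 1118 and 557 CPM against 258 to 429 CPM. Replicate 8 had 8 endothelial-like cells. The same mice led in Schwann-like cells for H2-D1 (2556 and 4980 CPM against 0 to 1579) and H2-K1 (737 and 1218 against 0 to 495), and in ganglion-like cells for H2-D1 (844 and 939 against 233 to 594). Other classes were mixed: ganglion-like H2-K1 stood at 132 and 328 CPM where the others reached 148 CPM, macrophage-like H2-D1 at 6055 and 3432 CPM where they reached 3942 CPM, macrophage-like H2-K1 at 1448 and 1007 CPM where they reached 1041 CPM, and fibroblast-like H2-K1 at 0 and 320 CPM lay inside their range. In neuroblast-like cells their H2-D1 values of 169 and 131 CPM lay inside the range of the others, as did those of H2-K1 (2.61 and 8.02 CPM), and B2m stood at 13.0 and 35.8 CPM where the others had 21.5 to 293 CPM. The summed level of the other class I heavy chains in endothelial-like cells was 1304 and 1595 CPM against 151 to 427 CPM, whereas 22 interferon-induced genes, at 2733 and 3558 CPM, lay inside the range of the others (2500 to 4051). In macrophage-like cells those genes, at 2369 and 986 CPM, lay above the others (257 to 980).

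**Figure D4:**
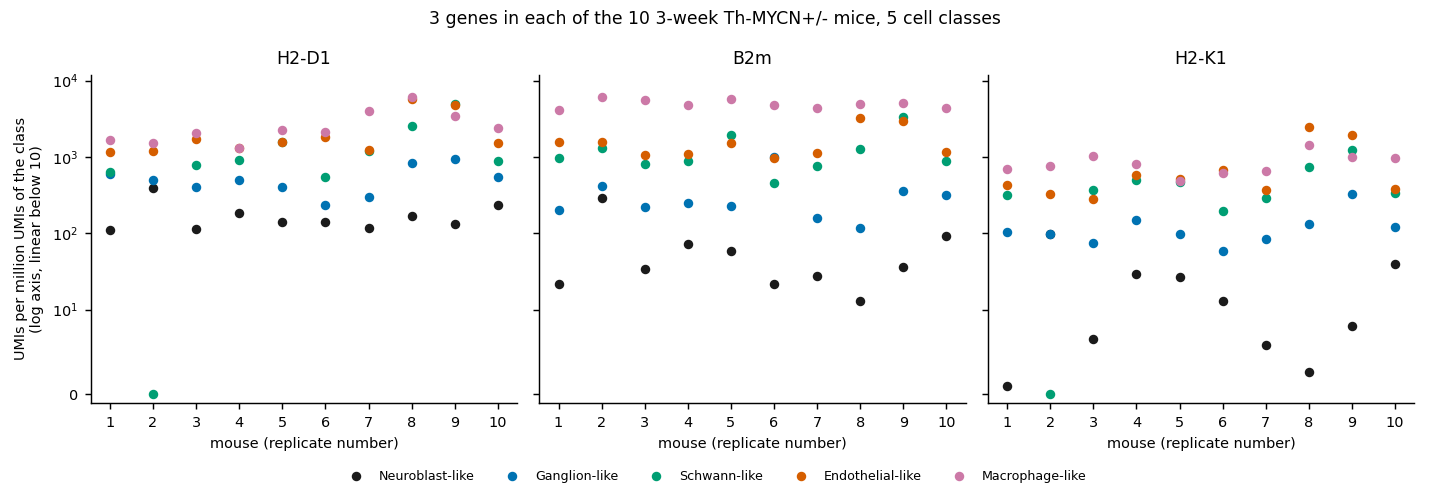
H2-D1, B2m and H2-K1 in each of the 10 3-week-old Th-MYCN+/- mice, in CPM of the class (logarithmic above 10, linear below), with 1 colour per class. In mice 8 and 9 the endothelial-like and Schwann-like points of H2-D1 and H2-K1 sit above those of the other mice, with H2-D1 at 5777 and 4774 in endothelial-like cells, while the black neuroblast-like points do not.

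The share of macrophage-like and NKT-like cells in a library and the H-MYCN level of its neuroblast-like cells were each set against neuroblast-like B2m, H2-D1 and H2-K1 over the 10 mice, 6 relations in all. B-cell-like cells (20 in replicate 6) were not counted in that immune share. Pearson's r ran from -0.33 to -0.56 and Spearman's rho from -0.07 to -0.43, and none passed a two-sided permutation test (adjusted p = 0.19 for every r, and 0.84 to 0.87 for rho). For B2m and the immune share r was -0.40 (permutation p = 0.12), rho was -0.21 (permutation p = 0.56) and r was -0.18 without the 2 mice farthest from the median share. For B2m and H-MYCN r was -0.56 (permutation p = 0.081), rho was -0.43 (permutation p = 0.22) and r was -0.70 without the 2 farthest mice, and -0.33 without replicate 2. Without replicate 6, the mouse farthest from the median immune share, r for the immune share was -0.73 for B2m, -0.78 for H2-D1 and -0.69 for H2-K1 (permutation test, adjusted p = 0.078 for each). Without replicate 2 these values were -0.31, -0.17 and -0.08, so their size rested on these mice. The labels give no batch within which to repeat them.

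Genes outside the family were ranked by how closely their mean levels over 8 named classes followed B2m. B-cell-like cells (49 over all libraries) were left out. By Pearson's r of log2(CPM + 10) among 7394 genes the closest were H2-Q7 (0.932), Junb (0.924), Glmp (0.921), Rrbp1 (0.908) and H2-M3 (0.874). H2-Q7 and H2-M3 are other class I heavy chains, and Junb is a subunit of the AP-1 transcription factor. Within the family r was 0.940 for H2-K1, 0.915 for H2-D1, 0.809 for Psmb8, 0.761 for Psmb9, 0.653 for Tapbp, 0.494 for Tap1 and 0.304 for Tap2. The 8 points share libraries and differ in depth, and the values are a description.

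Other genes of the pathway were described from fixed lists, in ganglion-like against neuroblast-like cells, where 30.7% of all genes tested were called higher and 36.7% lower. Of 10 other class I heavy chains 9 had UMIs and 2 were tested: H2-T22 rose by 4.17 ± 0.52 and Cd1d1, which presents lipids, fell by 1.11 on the log2 scale. Of 5 peptide loading and trimming genes 4 were tested and 1 rose, the tapasin relative Tapbpl (1.36 ± 0.25), whereas the chaperones Calr (-0.33), Pdia3 (-0.17) and Canx (-0.03) were not called. Among 4 immunoproteasome partners the third immune subunit Psmb10 rose by 2.22 ± 0.19 and the activator subunit Psme2 by 1.00 ± 0.14, and Psme1 (-0.05) and Psme3 (0.03) were not called. The constitutive subunits Psmb5, Psmb6 and Psmb7 gave 0 of 3 calls, and all 3 were called lower in Schwann-like cells (-1.01, -0.45 and -1.44; 37.2% of all genes were called lower) and in endothelial-like cells (-0.95, -0.51 and -1.75; 32.3% of all genes).

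Of 16 factors of the class I promoter complex and of interferon signalling 7 were tested. Stat3 rose by 1.79 ± 0.26, and Nfyc and Nfyb, subunits of the factor that binds the CCAAT box, fell by 2.27 and fell by 1.82 on the log2 scale. In Schwann-like cells, with 31.3% of all genes called higher, 8 were tested, of which 5 were called higher, Irf1 (4.21), Nfkb1 (3.68), Rfxank (2.81), Rela (2.75) and Stat3 (2.66), and 2 lower, Nfyc (-0.78) and Nfyb (-0.55). Of the 7 measured interferon receptors and ligands 5 were tested in ganglion-like cells, and the interferon gamma receptor chain Ifngr2 (0.92 ± 0.19) and the kinase Jak1 (0.70 ± 0.19) rose.

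Of 22 interferon-induced genes 5 were tested and 4 rose, beside 30.7% of all genes: Ifi27 (3.84 ± 0.27), Xaf1 (3.79 ± 0.31), Ifi35 (3.39 ± 0.30) and the membrane tether Bst2 (2.67 ± 0.34), with Samhd1 at -0.57 ± 0.26 (edgeR adjusted p = 0.055). Of 6 measured ligands that restrain or call lymphocytes 2 were tested, and Cd47, a signal against phagocytosis, rose by 1.27 ± 0.14 while Cd276 fell by 1.34 on the log2 scale. None of 7 MHC class II genes was tested in that comparison; in macrophage-like cells 4 were tested and 4 were higher than in neuroblast-like cells, beside 29.3% of all genes, among them H2-Ab1 (13.01) and H2-Aa (12.93), which form the class II molecule.

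**Figure D5:**
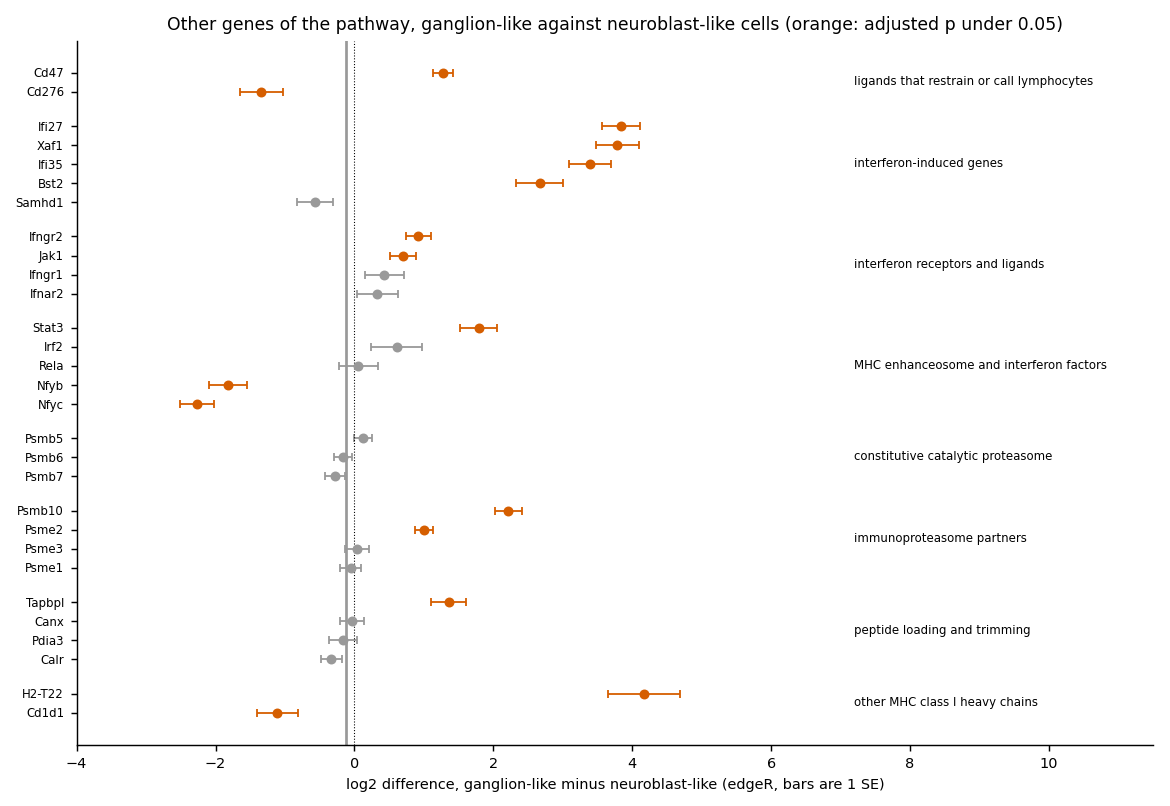
Log2 differences of the tested genes of 8 pathway lists, those named by the rule, in ganglion-like minus neuroblast-like cells (edgeR, bars 1 SE; orange, adjusted p under 0.05; grey line, median of all genes tested at -0.12). H2-T22 (4.17) and Ifi27 (3.84) lie farthest to the right, and Nfyc and Nfyb farthest to the left (-2.27 and -1.82).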

How the data were processed

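Droplet 3' single-cell RNA-seq was made from 12 SMG libraries, 1 mouse each. The authors deposited raw UMI counts per feature and barcode (32289 features, 737280 barcodes), made with Cell Ranger 3.0.2 per the file headers, and their reference was mm10 with human MYCN added. Reads shared by near-identical genes are not split further here.

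Barcodes above the free RNA profile were called as cells, clustered with Seurat 5.3.0 and sctransform 0.4.2 (30 components, resolution 0.5) and named from marker genes. UMIs were summed per mouse and class (at least 5 cells) and tested with edgeR 4.0.16 (quasi-likelihood test, TMM, mouse as block because both sums come from 1 mouse, Benjamini-Hochberg, threshold 0.05). Scrublet marked 49 cells (0.407%) and was not relied on, and the 600 highest scores were left out only as an alternative. Steps were tested on simulated data. WT and 6-week libraries have no replicate, and their values carry exact Poisson intervals.

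The members and gene lists were chosen with earlier results of these data known. Named were all 9 members, in each other list the 4 measured genes with the smallest p in ganglion-like against neuroblast-like cells and any gene past the threshold with at least 100 CPM in a class, and the 5 genes most like B2m. Of 134 ganglion and 37 malignant axis genes, none is a member. Alternatives were DESeq2 1.42.0, total UMIs, no low-count filter, no block, other cell filters, clusterings and range limits, and libraries left out.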

Additional observations from a re-analysis of the deposited data

Results flagged for a closer look

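In 13 of 38 groups of 9 or 10 mice 1 sample passed Dixon's 95% limit for its gap over the range. About 5% of groups would do so if values were normally distributed and groups independent. These groups share mice, and in all 13 the sample was the highest, so the 13 cannot be set against that 5%. Replicate 2 was the sample in 7 of the 13. In its 41 neuroblast-like cells B2m was at 293 CPM (9 UMIs, the next mouse at 91.1 CPM), H2-K1 at 97.6 CPM (3 UMIs, next 39.0 CPM), H2-D1 at 391 CPM (12 UMIs, next 233 CPM) and Tapbp at 65.1 CPM (2 UMIs, next 21.1 CPM). In its 7 Schwann-like cells a single UMI of Tap1, Tap2 and Psmb9 each gave 263 CPM, with 64.9, 158 and 80.4 CPM in the next mouse. Free RNA could account for up to 62.3% of its neuroblast-like UMIs.

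Replicate 6 had 991 CPM of B2m in ganglion-like cells (next 411 CPM), with 82 of 119 UMIs in 1 cell. Replicate 3 had 1264 CPM of Psmb9 in endothelial-like cells (next 311 CPM), with 48 of 49 UMIs in 1 cell. Replicate 8 had 1118 CPM of Psmb8 in its 8 endothelial-like cells (18 UMIs, next 557 CPM). Replicate 9 had 3292 CPM of B2m (next 1917 CPM) and 4980 CPM of H2-D1 (next 2556 CPM) in 303 Schwann-like cells and 328 CPM of H2-K1 (next 148 CPM) in 97 ganglion-like cells, values of 220 to 1611 UMIs.

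The WT library went the other way from every hemizygote 3 weeks old with such a contrast (10 mice, or 9 for fibroblast-like cells) in 8 contrasts with its own neuroblast-like cells, and the difference between WT and the hemizygotes was not tested because WT is 1 library. Ganglion-like cells had less B2m (196 against 302 CPM in neuroblast-like cells), H2-K1 (69 against 255 CPM), H2-D1 (247 against 371 CPM), Tapbp (109 against 186 CPM) and Psmb8 (69 against 116 CPM). Tapbp was also lower in Schwann-like (137 CPM) and endothelial-like cells (182 CPM), and B2m in fibroblast-like cells (242 CPM). All 8 rest on the 36 WT neuroblast-like cells, with 5 to 16 UMIs of each of the 5 genes and free RNA of up to 84.5%. Subtracting that share took WT neuroblast-like B2m, H2-D1 and Psmb8 to 0 CPM, so that their contrasts no longer went the other way, and left H2-K1 at 216 CPM and Tapbp at 288 CPM.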

How the results depend on the processing

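Of 436 alternative values of the 27 class comparisons of the 9 genes, 432 kept their direction and their side of the threshold. The exceptions were H2-D1 in myofibroblast-like cells (0.57, adjusted p = 0.24, without the low-count filter and 0.85, adjusted p = 0.26, with cells of at least 1000 UMIs), Tapbp in endothelial-like against ganglion-like cells (0.60, adjusted p = 0.059, without the filter) and H2-D1 by H-MYCN UMI (-0.0085 without the filter), all by edgeR, and the cause was not tested. The block is the mouse from which both sums came; without the replicate block the 5 genes in ganglion-like against neuroblast-like cells differed by 2.75 (B2m), 2.96, 1.67, 3.35 and 3.02, and the genes called numbered 4877 in place of 4816, and 1 in place of 2 by H-MYCN UMI. It changed no other call of the 9 genes.

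Counts of called genes moved more. Without the low-count filter, where more genes are tested, they were 7596 (ganglion-like, 4816 with it), 7779 (Schwann-like, 3780), 6770 (endothelial-like, 1366), 6067 (macrophage-like, 760), 4786 (fibroblast-like, 209), 4931 (myofibroblast-like, 1584), 6190 (endothelial-like against ganglion-like, 1351), 26 (H-MYCN) and 1406 (intermediate, 213). Without replicates 2 and 6 in turn they were 1310.0 to 2635 for endothelial-like cells, 497 to 2252 for macrophage-like and 181 to 1649 for fibroblast-like cells, in each case the larger without replicate 2. With at least 10 cells per sum they were 2252 (macrophage-like), 1624 (fibroblast-like) and 418 (intermediate). With cells of 500 or more genes and no more than 5% of mitochondrial UMIs they were 2609 (endothelial-like), 2575 (macrophage-like) and 935 (fibroblast-like), and with at least 1000 UMIs 2642, 2193 and 781. After free RNA subtraction fibroblast-like cells gave 126 and with log-normalized clustering 135. Thinning to 500 UMIs left 45 for the intermediate range and a limit of 0.4 gave 343.

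Chosen after seeing the data, the shallow cluster counted as neuroblast-like gave 1142 (macrophage-like) and 624 (fibroblast-like). Cells without endothelial or immune marker UMIs gave 2531 (ganglion-like) and 698 (endothelial-like against ganglion-like), and neural cells also without glial ones 1451, 472, 133 (fibroblast-like) and 952 (myofibroblast-like). Leaving out the highest doublet scores was the other such setting. Subtracting free RNA took WT neuroblast-like B2m and H2-D1 to 0 CPM and 6-week B2m to 107 CPM, and log-normalized clustering took the 6-week values to 23.5 (B2m), 3.53 (H2-K1) and 88.2 CPM (H2-D1). The cause was not tested. NKT-like cells were not compared, with 5 or more cells in only 2 mice. Depth limits Tap1, Tap2, Psmb9 and Nlrc5 in neural cells, where levels of up to 97.6 CPM could go unseen in replicate 2.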
